A study of Mus musculus with 2 samples.

Results

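The genes described are 40 subunits and partners of the Polycomb machinery, from the canonical and variant forms of Polycomb repressive complex 1 (PRC1), from Polycomb repressive complex 2 (PRC2) and from the Polycomb deubiquitinase PR-DUB, together with Kdm2b, the gene targeted in the knockout, and its paralogue Kdm2a. They were taken by symbol from a list of names, and all 40 were found among the 34344 listed gene IDs that carry a symbol. Messenger RNA was measured in 2 libraries of mouse peritoneal macrophages on the C57BL/6 background, 1 with the genotype label Kdm2b-/- and 1 labelled wild type (WT). The cells of both came from the abdominal cavity 4 days after thioglycollate, which attracts macrophages there, and both were treated with lipopolysaccharide (LPS), a bacterial cell wall component, at 100 ng/ml. The time in LPS reads 4 h in the sample characteristics and 3 h in the treatment protocol. Neither the sex and age of the mice, nor the allele behind the knockout, nor whether it acts in all cells, is given in the sources used here. With 1 library per group there was no replicate, no test across samples and no p-value, so each difference below is between these libraries.

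Polycomb proteins keep genes silent by marking histones. PRC1 carries RNF2 or RING1, which attach ubiquitin to histone H2A, and 1 of several PCGF proteins that sets the type of complex. Canonical PRC1 pairs PCGF2 or BMI1 with a CBX protein that reads the methyl mark left by PRC2, whereas variant PRC1 holds RYBP or YAF2 in place of CBX. PRC2, built on EZH1 or EZH2 with EED and SUZ12, methylates histone H3, and PR-DUB removes the ubiquitin from H2A. KDM2B is the subunit of the variant complex PRC1.1 that binds unmethylated CG dinucleotides through a CXXC zinc finger and brings the complex to CG-rich promoters. In macrophages, Polycomb complexes are known as regulators of inflammatory genes.

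Promoter sequences from RefSeq (GRCm38.p6), running from 250 bases before to 50 bases after an annotated start, are shown for the targeted gene and for Bcor, Asxl1 and Pcgf5, which had the highest 2 and the lowest log2 ratios on FPKM + 1 among members with a mean of at least 1 FPKM (fragments scaled by transcript length and by library size), with each CG dinucleotide, the letters that KDM2B binds when unmethylated, in capitals. For Kdm2b, on the minus strand of chromosome 5, the outermost of its annotated windows are given, since the gene has distant starts. They lie at chr5:122989050-122989349 and chr5:122900301-122900600, that is 88749 bases apart. The window of Bcor lies at chrX:12160306-12160605 (minus strand), that of Asxl1 at chr2:153345580-153345879 (plus strand) and the outermost one of Pcgf5 at chr19:36348079-36348378 (plus strand).
Kdm2b, upstream start: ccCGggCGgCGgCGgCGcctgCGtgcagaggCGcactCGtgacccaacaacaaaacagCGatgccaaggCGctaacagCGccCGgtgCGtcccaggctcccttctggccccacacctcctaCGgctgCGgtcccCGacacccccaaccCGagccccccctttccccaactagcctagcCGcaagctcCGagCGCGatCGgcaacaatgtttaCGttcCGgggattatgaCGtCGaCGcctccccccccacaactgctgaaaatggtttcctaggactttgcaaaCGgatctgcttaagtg
Kdm2b, downstream start: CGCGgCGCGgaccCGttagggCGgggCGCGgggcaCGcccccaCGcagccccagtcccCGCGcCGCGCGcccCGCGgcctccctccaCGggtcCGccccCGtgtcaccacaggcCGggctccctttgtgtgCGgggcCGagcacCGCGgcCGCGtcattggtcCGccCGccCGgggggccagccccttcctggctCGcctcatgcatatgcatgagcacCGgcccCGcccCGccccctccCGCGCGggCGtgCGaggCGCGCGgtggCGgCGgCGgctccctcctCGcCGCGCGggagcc
Bcor: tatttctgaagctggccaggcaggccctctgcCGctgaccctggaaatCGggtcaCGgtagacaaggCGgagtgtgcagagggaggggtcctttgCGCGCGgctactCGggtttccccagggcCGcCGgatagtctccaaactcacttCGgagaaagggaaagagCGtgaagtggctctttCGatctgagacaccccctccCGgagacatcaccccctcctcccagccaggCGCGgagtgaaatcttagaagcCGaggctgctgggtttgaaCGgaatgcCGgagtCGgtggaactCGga
Asxl1: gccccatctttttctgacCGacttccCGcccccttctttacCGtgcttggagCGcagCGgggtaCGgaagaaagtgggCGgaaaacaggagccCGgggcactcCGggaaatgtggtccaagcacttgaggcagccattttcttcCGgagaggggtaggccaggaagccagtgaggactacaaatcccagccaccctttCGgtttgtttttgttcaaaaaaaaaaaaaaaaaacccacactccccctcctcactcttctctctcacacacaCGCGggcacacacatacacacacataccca
Pcgf5: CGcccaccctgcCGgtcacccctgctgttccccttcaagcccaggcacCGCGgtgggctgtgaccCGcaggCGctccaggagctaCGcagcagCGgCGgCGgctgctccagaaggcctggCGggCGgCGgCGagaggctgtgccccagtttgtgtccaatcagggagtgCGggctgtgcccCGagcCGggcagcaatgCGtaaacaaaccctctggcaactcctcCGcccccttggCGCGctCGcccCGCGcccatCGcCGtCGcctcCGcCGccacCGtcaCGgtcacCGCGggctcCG

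The upstream window of Kdm2b held 28 CG dinucleotides and the downstream one 49. Bcor held 21, Asxl1 held 13 and Pcgf5 held 34. A promoter window was found for 35 of the 40 members, the exceptions being Cbx2, Kdm2a, Pcgf1, Rybp and Yaf2. Taking the window richest in CG for each gene, the members had a median of 29 CG dinucleotides, with a range of 9 to 63. The median was 8 over all 27025 genes with a window, and 23 over the 6994 of them that reached a mean of 1 FPKM in these libraries. The median of the members, some of which were under a mean of 1 FPKM, thus lay above that of the detected genes. Some members, such as Asxl1 and Bcor, lay below it. The E-box CACGTG, which reads the same on both strands and is the motif that MAX and MGA bind, occurred in the windows of 10 of the 35 members (28.6%), against 12.2% of the detected genes and 8.09% of all genes. Since the 35 include members under a mean of 1 FPKM, the share of detected genes is not like for like. Of the 10, Pcgf2, Cbx6, Cbx8, Phc3, Bcorl1 and Asxl2 were under that level. Bmi1, Phc2, Rbbp4 and Bap1 reached it. The E2F motif TTCCCGC, searched on both strands, occurred in 4 (11.4%), namely Asxl1, Suz12, Phf19 and Pcgf5, against 9.49% of the detected genes and 5.29% of all genes. Of these, Phf19 was under a mean of 1 FPKM. In Pcgf5 the motif lay in another window, at chr19:36409498-36409797, and not in the one shown. These are matches of letters in the reference, and neither binding nor methylation was measured.

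Depth was close in the 2 libraries. About 26800000 fragments lay behind the library labelled Kdm2b-KO and 27300000 behind the WT library, as estimated from the steps of the low FPKM values. In the library labelled Kdm2b-KO 9180 genes reached 1 FPKM, and in the WT library 8804. A gene was counted when its mean over both libraries was at least 1 FPKM, which held for 9022 genes, called detected here. The log2 ratio of the library labelled Kdm2b-KO over the WT library was computed on FPKM + 1, a scale that shrinks the differences of low genes. The FPKM ratio itself, with no pseudocount, is given with a 95% counting interval (exact Clopper-Pearson from estimated fragments) that covers counting error only. Macrophage markers were present as labelled, with all 8 detected and a sum of 14208 FPKM in the library labelled Kdm2b-KO and 11923 FPKM in the WT library. Most of the sum was Lyz2, at 11409 FPKM in the library labelled Kdm2b-KO and 8945 FPKM in the WT library. Of the 8, 5 were higher and 3 lower in the library labelled Kdm2b-KO. Genes of the sex chromosomes set the libraries apart. The Y-linked genes Ddx3y and Eif2s3y had 5.72 FPKM and 10.2 FPKM in the library labelled Kdm2b-KO and were listed at 0 in the WT library, as were Kdm5d and Uty, at 0.592 FPKM and 0.574 FPKM in the library labelled Kdm2b-KO. Xist, the RNA of the inactive X, had 0.00398 FPKM in the library labelled Kdm2b-KO and 8.55 FPKM in the WT library. The genotype label and the sex of the animals can therefore not be told apart in any difference reported here.

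Kdm2b, the targeted gene, was low in both libraries and was not lower in the one labelled Kdm2b-KO. Its level (ENSMUSG00000029475, chr5:122870665-122989823, GRCm38) was 0.326 FPKM there, about 45 fragments, and 0.205 FPKM in the WT library, about 29 fragments. The log2 FPKM ratio was 0.67 with an interval of -0.04 to 1.39, so with the longest transcript as gene length a difference was not detectable at this depth, and the interval did not reach down to values that a transcript mostly lost would have. With the summed length of all its exons instead, about 95 fragments in the library labelled Kdm2b-KO and 61 in the WT library, the interval was 0.19 to 1.16 and lay above 0. The gene has 20 annotated transcripts and shares its strand with Gm43411 and Gm44574 and its locus with Rnf34 and A930024E05Rik on the opposite strand. No strand marking is described for these libraries, so reads of overlapping genes could not be told apart. A gene-level value shows neither a deleted exon nor which of the distant starts was used. The label is therefore kept as given, and higher or lower below refers to that library and not to a checked genotype. Kdm2a, the paralogue that binds unmethylated CG but is not known as a PRC1 subunit, was at 0.940 FPKM in the library labelled Kdm2b-KO and 1.01 FPKM in the WT library, a log2 FPKM ratio of -0.10 (interval -0.37 to 0.17). Kdm2a thus held 74.3% of the summed FPKM of the pair in the library labelled Kdm2b-KO and 83.1% in the WT library. The ratio of Kdm2b to Kdm2a was 1.70 times as high in the library labelled Kdm2b-KO, with an interval of 0.99 to 2.90 that includes 1.

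**Figure D1:**
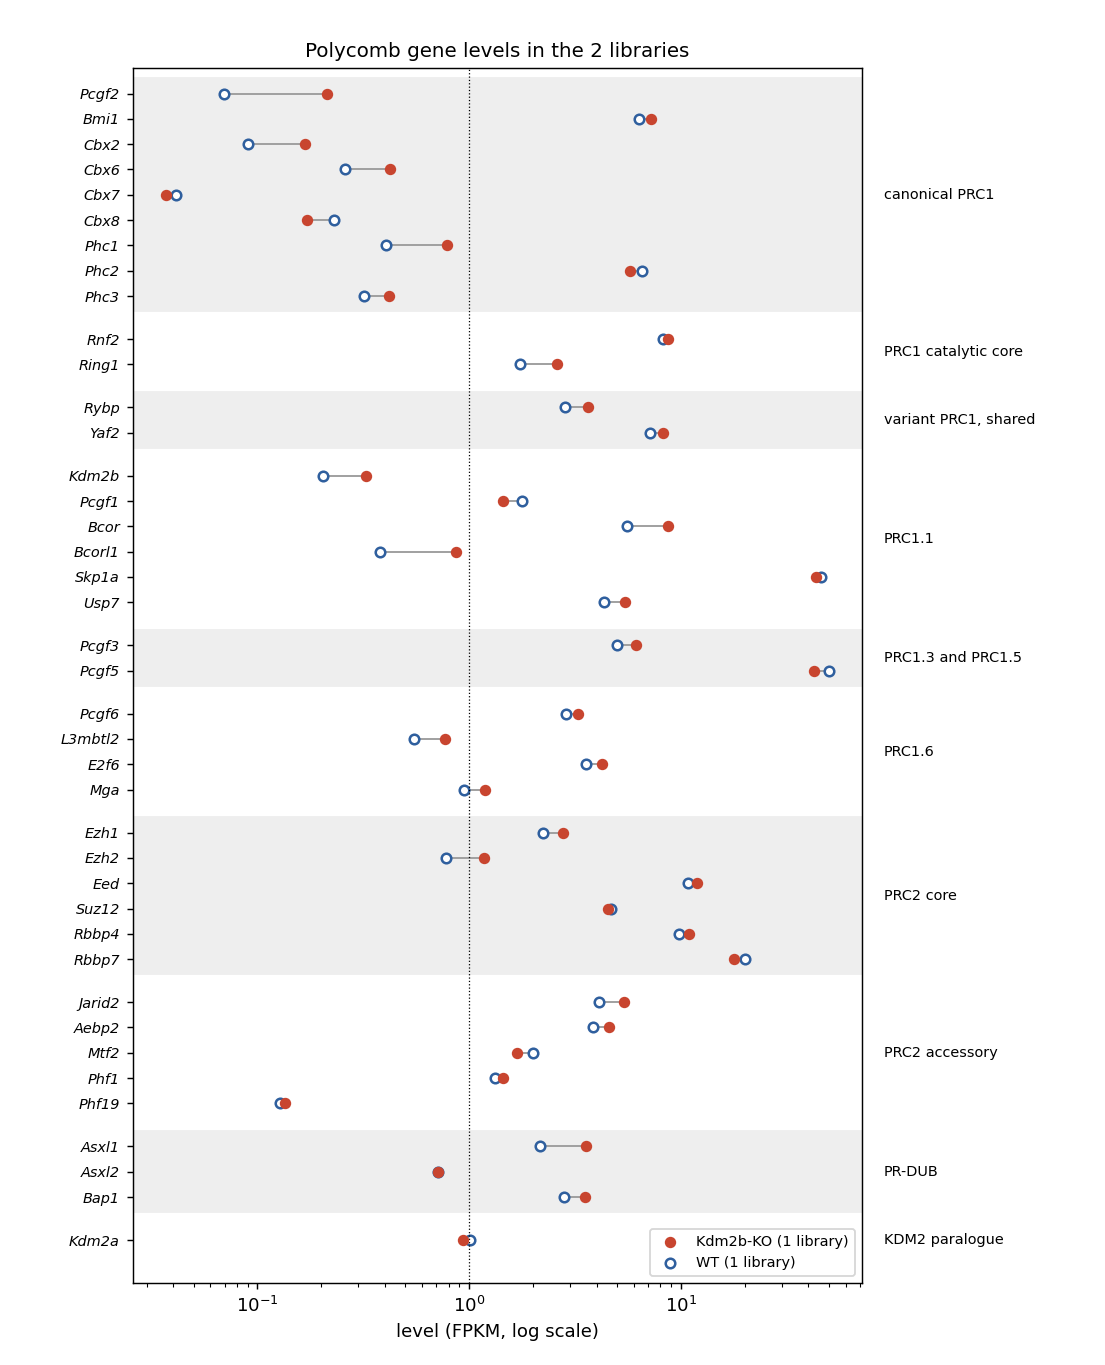
Level of each of the 40 Polycomb genes in FPKM on a log scale, grouped by complex. Filled points are the library labelled Kdm2b-KO, open points the WT library (1 library each), and the dotted line marks 1 FPKM; Pcgf5 and Skp1a lie highest in both libraries and Cbx7 lowest.

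As a group the Polycomb genes differed little between the libraries. Of the 40, 26 reached a mean of 1 FPKM and 14 did not. Among the 26, 0 passed 2-fold upwards in the library labelled Kdm2b-KO and 0 downwards on the FPKM + 1 scale, where 0.865% of all detected genes were higher and 1.02% lower by that rule. At 1.5-fold the counts were also 0 and 0, where 4.69% of detected genes were higher and 2.79% lower. With shares that small, a count of 0 in 26 genes is near the background. With a pseudocount of 0.1, or with both libraries scaled to equal totals, Bcor and Asxl1 passed 1.5-fold. The median log2 ratio of the 26 was 0.17, with a range of -0.22 to 0.57, against a median of 0.10 over all detected genes. The log2 ratio was above 0 for 19 of the 26 (73.1%) and for 63.2% of all detected genes. Summed over all 40, the members held 227.6 FPKM in the library labelled Kdm2b-KO and 221.7 FPKM in the WT library.

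The counting interval of the FPKM ratio lay above 0 for 14 of the 26 (53.8%) and below 0 for 3 (11.5%), against 43.0% and 20.3% of all detected genes. Those below 0 were Pcgf5, Phc2 and Rbbp7. Of the 14 members under 1 FPKM, the interval lay above 0 for 6 and below 0 for 0, against 14.5% and 4.12% of the 8111 genes under that level and above 0 in either library. The 6 were Pcgf2, Cbx6, Phc1, Bcorl1, L3mbtl2 and Ezh2. Whether an interval leaves 0 depends on the number of fragments, which was not matched in these comparisons, so the shares are not like for like. By complex, the median log2 ratio on FPKM + 1 over members that reached 1 FPKM was -0.00 for canonical PRC1 (2 of 9 genes), 0.18 for variant PRC1 (11 of 14), 0.12 for PRC2 (9 of 11) and 0.39 for PR-DUB (2 of 3). Canonical PRC1 had the lowest share of detected genes of these 4 classes, and its median rests on Bmi1 and Phc2 alone.

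**Figure D2:**
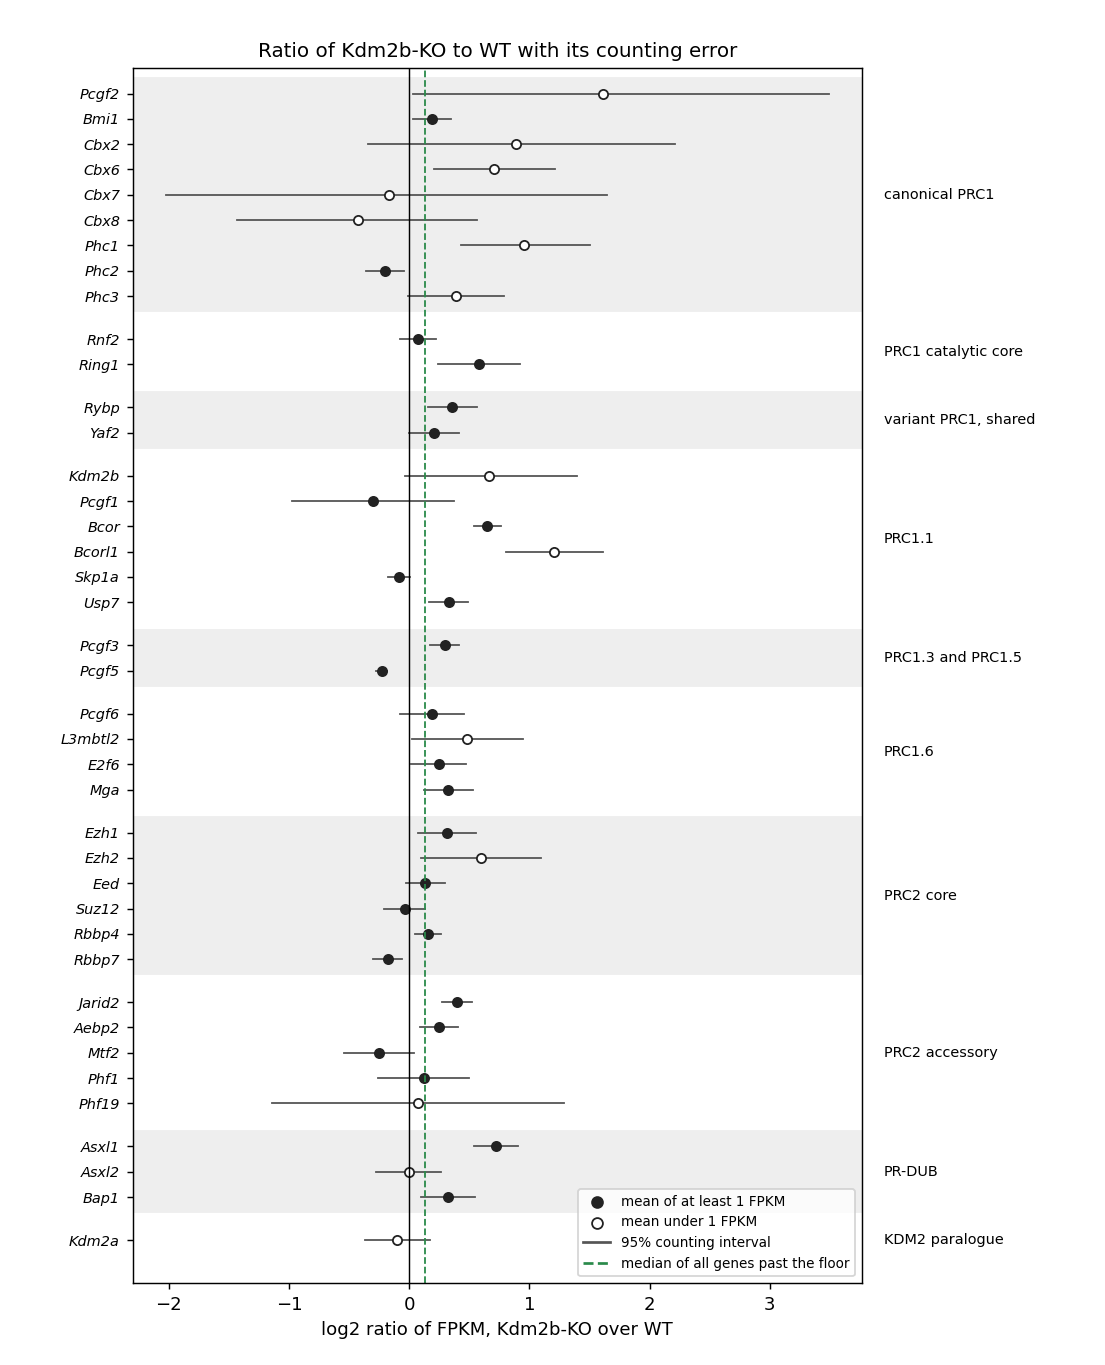
Log2 ratio of FPKM in the library labelled Kdm2b-KO over the WT library for each of the 40 genes, with its 95% counting interval as a line. Filled points had a mean of at least 1 FPKM, open points did not, and the dashed line is the median of all detected genes; Bcor, Bcorl1 and Asxl1 lie farthest right of it among genes with narrow intervals, and Pcgf5, Phc2 and Rbbp7 lie left of 0.

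In PRC1.1, the complex of KDM2B, the corepressor genes Bcor and Bcorl1 were higher in the library labelled Kdm2b-KO, Usp7 was higher by less, and the intervals of Kdm2b, Pcgf1 and Skp1a included 0. Bcor, the corepressor that links the complex to BCL6, stood at 8.70 FPKM in the library labelled Kdm2b-KO, about 1619 fragments, and 5.54 FPKM in the WT library, about 1048 fragments. Its log2 ratio on FPKM + 1 was 0.57, the highest of the 26 detected members, and its FPKM was 1.57 times as high (log2 interval 0.54 to 0.76). Bcorl1, its paralogue, stood at 0.871 FPKM in the library labelled Kdm2b-KO and 0.378 FPKM in the WT library, 2.30 times as high, with a log2 interval of 0.81 to 1.61. Both genes lie on chromosome X, and Bcor held most of the pair in both libraries, 90.9% of the summed FPKM in the one labelled Kdm2b-KO and 93.6% in the WT library. The ratio of Bcor to Bcorl1 in the library labelled Kdm2b-KO was 0.68 times that of the WT library (interval 0.51 to 0.91).

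Pcgf1, the PCGF subunit that defines PRC1.1, was at 1.45 FPKM (about 36 fragments) in the library labelled Kdm2b-KO and 1.78 FPKM (about 45 fragments) in the WT library, and its log2 interval of -0.97 to 0.37 included 0. Skp1a, which encodes SKP1, an adaptor shared with the SCF ubiquitin ligases, was at 43.3 FPKM in the library labelled Kdm2b-KO and 45.9 FPKM in the WT library (log2 interval -0.17 to 0.00, with its upper bound just above 0). Usp7, a deubiquitinase found in PRC1.1 and in many other complexes, was at 5.42 FPKM in the library labelled Kdm2b-KO and 4.32 FPKM in the WT library (log2 interval 0.16 to 0.49). Kdm2b was the least abundant of the 6 PRC1.1 genes in both libraries, and the median log2 ratio of the 4 that reached 1 FPKM was 0.09, close to that of all detected genes.

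Both catalytic genes of PRC1 were detected, and Ring1 differed more than Rnf2. Rnf2, which encodes RING1B, had 8.66 FPKM in the library labelled Kdm2b-KO and 8.23 FPKM in the WT library, and its log2 interval of -0.08 to 0.22 included 0. Ring1, which encodes RING1A, had 2.61 FPKM (about 179 fragments) in the library labelled Kdm2b-KO and 1.75 FPKM (about 121 fragments) in the WT library, with a log2 interval of 0.24 to 0.93. Rnf2 was the more abundant of the pair in both libraries, at 76.8% of their sum in the library labelled Kdm2b-KO and 82.5% in the WT library. The ratio of Rnf2 to Ring1 in the library labelled Kdm2b-KO was 0.70 times that of the WT library, with an interval of 0.54 to 0.91.

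Rybp and Yaf2, the paralogues that mark variant PRC1 and stimulate its activity, were both detected. Rybp had 3.65 FPKM in the library labelled Kdm2b-KO and 2.84 FPKM in the WT library (log2 interval 0.15 to 0.57). Yaf2 had 8.22 FPKM in the library labelled Kdm2b-KO and 7.13 FPKM in the WT library, with a log2 interval of -0.00 to 0.41 whose lower bound was just below 0. Yaf2 was the larger share in both, and the ratio of Rybp to Yaf2 in the library labelled Kdm2b-KO was 1.11 times that of the WT library (interval 0.91 to 1.36), a difference within counting error.

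Among the PCGF genes, which decide the type of PRC1, Pcgf5 was by far the most abundant. Pcgf5, of the variant complex PRC1.5, was at 42.7 FPKM in the library labelled Kdm2b-KO and 49.9 FPKM in the WT library, and its mean level was above that of 89.5% of detected genes. Its log2 ratio of -0.22 was the lowest of the detected members, and its log2 interval ran from -0.27 to -0.18 on about 7367 fragments in the library labelled Kdm2b-KO and 8768 in the WT library. It overlaps Gm47773 and Gm9042 on its own strand, so reads of these genes could not be told apart from its own. Same-strand overlaps of this kind were also annotated for Phc3, Rnf2, Rybp, Skp1a, Usp7, Eed and Phf1. Without strand marking, opposite-strand overlaps cannot be told apart either. Those were annotated for further members, among them Cbx7 (Apobec3), Rbbp7 (Txlng), Mtf2 (Tmed5), Rnf2 (Trmt1l), Phf1 (Cuta) and Rbbp4 (Sync). Pcgf5 held 70.0% of the PCGF sum in the library labelled Kdm2b-KO and 75.7% in the WT library.

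The other PCGF genes were led by Bmi1 and Pcgf3. Bmi1, the PCGF subunit of canonical PRC1 known for repression of the Cdkn2a locus, had 7.25 FPKM in the library labelled Kdm2b-KO and 6.35 FPKM in the WT library (log2 interval 0.03 to 0.35) and held 11.9% of the PCGF sum in the library labelled Kdm2b-KO and 9.62% in the WT library. Pcgf3, the closest paralogue of Pcgf5, had 6.12 FPKM in the library labelled Kdm2b-KO and 4.99 FPKM in the WT library (log2 interval 0.18 to 0.41). Pcgf3 and Pcgf5 thus differed between the libraries in opposite directions on the values as deposited. With the trend on length and GC content removed, as described below, Pcgf3 was at 0.02, close to the median of all detected genes. Pcgf5 was then at -0.41. Pcgf2, the other canonical PCGF gene, was near the limit of detection, at 0.213 FPKM (about 14 fragments) in the library labelled Kdm2b-KO and 0.0697 FPKM (about 5 fragments) in the WT library, with a log2 interval of 0.03 to 3.49. Variant PCGF genes (Pcgf1, Pcgf3, Pcgf5 and Pcgf6) together had 7.17 times the FPKM of the canonical pair in the library labelled Kdm2b-KO and 9.28 times in the WT library. Without Pcgf5 the ratio was 1.45 in the library labelled Kdm2b-KO and 1.5 in the WT library, so the excess of variant over canonical PCGF transcripts, and its difference between the libraries, lay mostly in Pcgf5.

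Most canonical PRC1 genes were low, 7 of the 9 being under a mean of 1 FPKM. Of the CBX members, which read the methyl mark of PRC2, none reached 1 FPKM in either library. Cbx6 had 0.421 FPKM in the library labelled Kdm2b-KO and 0.258 FPKM in the WT library (log2 interval 0.20 to 1.22), and it shares its strand and locus with Npcd. Cbx8 had 0.171 FPKM in the library labelled Kdm2b-KO and 0.230 FPKM in the WT library, and Cbx2 had 0.167 FPKM in the library labelled Kdm2b-KO and 0.0904 FPKM in the WT library. Cbx7 was listed at 0.0369 FPKM in the library labelled Kdm2b-KO and 0.0415 FPKM in the WT library, on about 6 fragments in the library labelled Kdm2b-KO and 7 in the WT library. The log2 intervals of Cbx2, Cbx7 and Cbx8 all included 0, so their shares within the family, such as 21.5% in the library labelled Kdm2b-KO and 37.0% in the WT library for Cbx8, rest on few fragments.

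The PHC genes encode the subunits through which canonical PRC1 polymerises. Phc2 was the main one, at 5.72 FPKM in the library labelled Kdm2b-KO and 6.59 FPKM in the WT library, with a log2 interval of -0.36 to -0.04. Phc1 was at 0.789 FPKM in the library labelled Kdm2b-KO and 0.406 FPKM in the WT library, 1.94 times as high on about 89 fragments in the library labelled Kdm2b-KO and 47 in the WT library, with a log2 interval of 0.43 to 1.5. Phc3 was at 0.419 FPKM in the library labelled Kdm2b-KO and 0.320 FPKM in the WT library (log2 interval -0.01 to 0.79). Phc2 held 82.6% of the PHC sum in the library labelled Kdm2b-KO and 90.1% in the WT library, whereas Phc1 held 11.4% in the library labelled Kdm2b-KO and 5.55% in the WT library.

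In PRC1.6, which represses germline and cell cycle genes, the 4 members had higher values in the library labelled Kdm2b-KO, as did most detected genes, and the interval of Pcgf6 included 0. Pcgf6, its PCGF subunit, had 3.27 FPKM there and 2.87 FPKM in the WT library (log2 interval -0.08 to 0.46). E2f6, a repressive E2F factor that recruits the complex, had 4.22 FPKM in the library labelled Kdm2b-KO and 3.56 FPKM in the WT library (log2 interval 0.02 to 0.48). Mga, the large MAX partner that binds E-boxes, had 1.18 FPKM in the library labelled Kdm2b-KO and 0.946 FPKM in the WT library (log2 interval 0.12 to 0.53). L3mbtl2, an MBT domain subunit, had 0.771 FPKM in the library labelled Kdm2b-KO and 0.551 FPKM in the WT library (log2 interval 0.02 to 0.95). The differences were small, with a median log2 ratio on FPKM + 1 of 0.17 over the 3 that reached 1 FPKM. With the trend on length and GC content removed, Mga was at -0.04. L3mbtl2, under 1 FPKM, was at -0.08, from a ratio already shrunk on FPKM + 1.

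Within the PRC2 core, Ezh1 was the more abundant catalytic gene and Ezh2, the form typical of dividing cells, was near 1 FPKM. Ezh1 had 2.76 FPKM in the library labelled Kdm2b-KO and 2.22 FPKM in the WT library (log2 interval 0.07 to 0.56). Ezh2 had 1.17 FPKM (about 88 fragments) in the library labelled Kdm2b-KO and 0.777 FPKM (about 59 fragments) in the WT library, with a log2 interval of 0.10 to 1.1. Its mean of 0.976 FPKM was just under the floor, and that of Kdm2a was 0.973, while Mga at 1.07 FPKM was the member just above it. Ezh1 made up 70.2% of the pair in the library labelled Kdm2b-KO and 74.1% in the WT library, and the ratio of Ezh1 to Ezh2 in the library labelled Kdm2b-KO was 0.82 times that of the WT library (interval 0.56 to 1.20), within counting error. Of 12 markers of proliferating cells, 9 were higher in the library labelled Kdm2b-KO. Over all detected genes the log2 ratio was above 0 for 63.2%. Among the 9 was Top2a, at 3.86 FPKM in the library labelled Kdm2b-KO and 2.41 FPKM in the WT library. Another was Rrm2, at 5.18 FPKM in the library labelled Kdm2b-KO and 2.48 FPKM in the WT library. Mki67 was lower, at 9.77 FPKM in the library labelled Kdm2b-KO and 10.8 FPKM in the WT library. So was Pcna, at 91.4 FPKM in the library labelled Kdm2b-KO and 120.4 FPKM in the WT library. Ccnb1 was at 0.770 FPKM in the library labelled Kdm2b-KO and 0.793 FPKM in the WT library. The 12 summed to 139.3 FPKM in the library labelled Kdm2b-KO and 159.2 FPKM in the WT library, most of it Pcna. The part of dividing cells in the Ezh2 difference was not tested. In bulk RNA, fewer cells of a type and less RNA per cell cannot be told apart.

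The scaffold genes of PRC2 were close in both libraries. Eed, whose product reads the methyl mark and stimulates the enzyme, had 11.9 FPKM in the library labelled Kdm2b-KO and 10.8 FPKM in the WT library (log2 interval -0.03 to 0.30). Suz12, which holds the core together, had 4.54 FPKM in the library labelled Kdm2b-KO and 4.67 FPKM in the WT library (log2 interval -0.21 to 0.14). Both intervals included 0, although with the summed exon length that of Eed was 0.02 to 0.25. Rbbp4 and Rbbp7, histone chaperones shared with other chromatin complexes such as NuRD, had opposite signs on the values as deposited. Rbbp4 had 10.9 FPKM in the library labelled Kdm2b-KO and 9.82 FPKM in the WT library (log2 interval 0.04 to 0.27). Rbbp7, on chromosome X, had 17.8 FPKM in the library labelled Kdm2b-KO and 20.1 FPKM in the WT library (log2 interval -0.30 to -0.06). The ratio of Rbbp4 to Rbbp7 in the library labelled Kdm2b-KO was 1.26 times that of the WT library (interval 1.12 to 1.41). With the trend on transcript length and GC content removed, as described below, both were below 0, Rbbp4 at -0.02 and Rbbp7 at -0.17.

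The accessory genes divide PRC2 into a form with JARID2 and AEBP2 (PRC2.2) and a form with a Polycomb-like protein, MTF2, PHF1 or PHF19 (PRC2.1). Jarid2, which binds ubiquitinated H2A, had 5.41 FPKM in the library labelled Kdm2b-KO and 4.10 FPKM in the WT library (log2 interval 0.28 to 0.52). Aebp2 had 4.56 FPKM in the library labelled Kdm2b-KO and 3.83 FPKM in the WT library (log2 interval 0.09 to 0.41). Both PRC2.2 genes were thus higher in the library labelled Kdm2b-KO beyond counting error on the values as deposited. With the trend on length and GC content removed, Jarid2 and Aebp2 were each at 0.04, close to the median of all detected genes. Mtf2, which binds CG-rich DNA, had 1.69 FPKM in the library labelled Kdm2b-KO and 2.01 FPKM in the WT library (log2 interval -0.54 to 0.04). Phf1 had 1.44 FPKM in the library labelled Kdm2b-KO and 1.33 FPKM in the WT library (log2 interval -0.26 to 0.50), and Phf19 had 0.134 FPKM in the library labelled Kdm2b-KO and 0.128 FPKM in the WT library on about 13 fragments in each library. The intervals of all 3 PRC2.1 genes included 0. The summed FPKM of the PRC2.2 pair was 3.05 times that of the 3 Polycomb-like genes in the library labelled Kdm2b-KO and 2.29 times in the WT library.

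In PR-DUB, Asxl1 differed between the libraries beyond counting error, whereas the values of its paralogue Asxl2 were nearly equal. Asxl1, which activates the deubiquitinase BAP1 and is often mutated in myeloid disease, had 3.55 FPKM (about 665 fragments) in the library labelled Kdm2b-KO and 2.16 FPKM (about 410 fragments) in the WT library. Its log2 ratio on FPKM + 1 was 0.53, the second highest among detected members, and its FPKM was 1.65 times as high (log2 interval 0.54 to 0.90). Asxl2 had 0.710 FPKM in the library labelled Kdm2b-KO and 0.711 FPKM in the WT library (log2 interval -0.27 to 0.27). Bap1, the catalytic subunit, had 3.52 FPKM in the library labelled Kdm2b-KO and 2.81 FPKM in the WT library (log2 interval 0.10 to 0.55). Asxl1 held 83.3% of the ASXL pair in the library labelled Kdm2b-KO and 75.2% in the WT library, and the ratio of Asxl1 to Asxl2 in the library labelled Kdm2b-KO was 1.65 times that of the WT library, with an interval of 1.32 to 2.07.

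**Figure D3:**
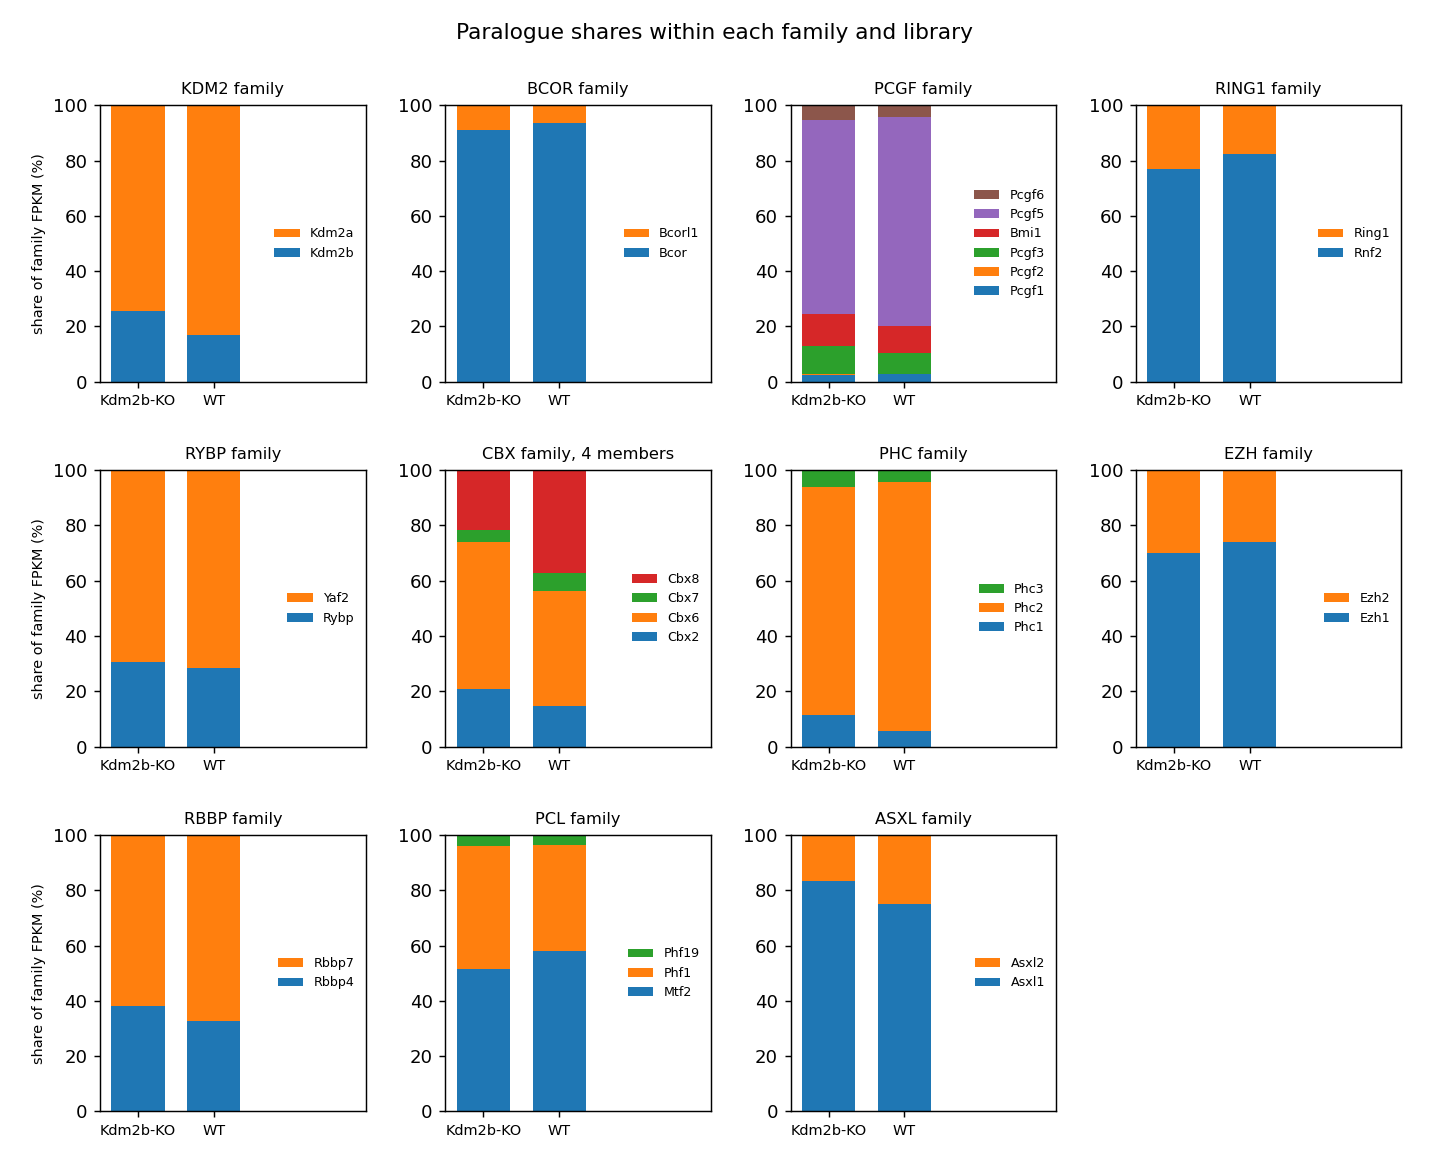
Share of the summed FPKM of each paralogue family held by each gene, in percent, with the library labelled Kdm2b-KO on the left of each panel and the WT library on the right (1 library each). PCL stands for the Polycomb-like genes, and the CBX panel holds the 4 CBX genes among the members; the leading paralogue was the same in both libraries in all families shown, with the largest lead for Bcor, at 90.9% in the library labelled Kdm2b-KO and 93.6% in the WT library.

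The choice of paralogue was therefore the same in both libraries in each of the 11 families, with Kdm2a, Bcor, Pcgf5, Rnf2, Yaf2, Cbx6, Phc2, Ezh1, Rbbp7, Mtf2 and Asxl1 in the lead. In 9 of them the leading paralogue held a smaller share in the library labelled Kdm2b-KO than in the WT library, and in Cbx6 and Asxl1 a larger one. With the trend described next removed, the count was 8, since the small difference of Yaf2 turned. Several of these share differences, among them those of the EZH, RYBP and KDM2 pairs, were within counting error.

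The log2 ratios of all detected genes went along with transcript length, while no trend was computed for the members alone. With the detected genes split into 10 groups of nearly equal size by longest transcript, the median log2 ratio on FPKM + 1 was -0.23 in the group of shortest genes (132 to 1200 bases) and 0.29 in that of the longest (longest transcript of 6249 to 123179 bases). Members were longer than most genes, with a median of 4004.5 bases against 3093 for all detected genes, and the 6 members in the group of the longest genes had a median of 0.29. They were Bcor, Asxl1, Jarid2, Pcgf3, Mga and Pcgf5, the last being the detected member with the lowest log2 ratio. Over the groups the medians of the members did not rise evenly, with -0.16 for the 3 members of 3600 to 4174 bases. With the trend on length and GC content removed, the median of the members was 0.04 against 0.00 for all detected genes, and 17 of the 26 (65.4%) were above 0 against 49.9% of all. Bcor remained the highest detected member at 0.25, above 85.9% of detected genes, followed by Ring1 at 0.24, Asxl1 at 0.23 and Yaf2 at 0.22. Phc2 at -0.46 and Pcgf5 at -0.41 were the lowest, above 4.80% and 6.11% of detected genes. Kdm2b, under 1 FPKM, was at -0.11 after this step, from 0.14 on FPKM + 1. The medians removed came from detected genes, while FPKM + 1 shrinks the ratio of so low a gene. Its change of sign is therefore not read as a result. What the trend with length reflects was not tested.

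**Figure D4:**
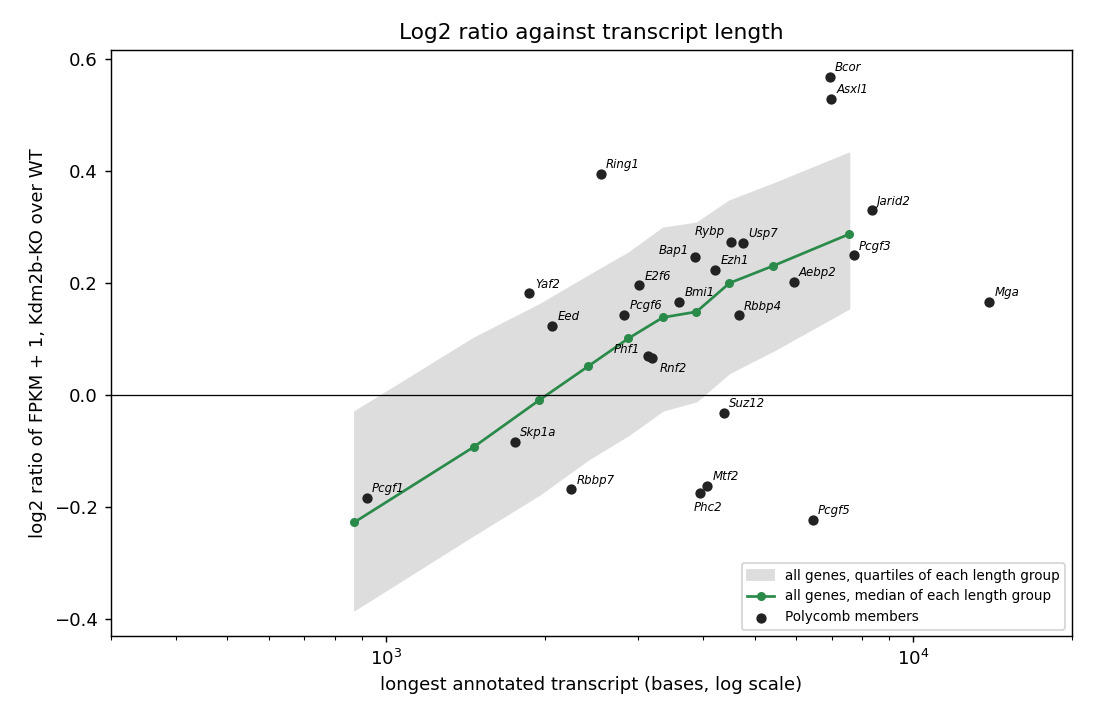
Log2 ratio on FPKM + 1 of the library labelled Kdm2b-KO over the WT library against the longest annotated transcript in bases on a log scale. Black points are the 26 detected members, the green line joins the medians of all detected genes in 10 groups by length, placed at each group's median length, and the grey band spans the quartiles of each group; Bcor, Asxl1 and Ring1 lie well above the band and Yaf2 just above it, and Phc2, Mtf2, Pcgf5, Rbbp7 and Suz12 lie below it.

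Bcor, Bcorl1 and Rbbp7 are the members on chromosome X, where the median log2 ratio on FPKM + 1 of 273 detected genes was 0.05. Without these members the median of the other 24 detected ones was 0.17, the same as with them.

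Genes that work with these complexes were mostly higher in the library labelled Kdm2b-KO, by small amounts on FPKM + 1. Of 34 other Polycomb-associated genes, 33 were found and 20 were detected, with a median log2 ratio on FPKM + 1 of 0.25, against 0.10 over all detected genes. Once corrected for length and GC content this median was 0.11. Of the 20, 1 was at least 1.5-fold higher on FPKM + 1 and 0 lower. That gene was Hcfc1, an X-linked partner of BAP1, at 2.48 FPKM in the library labelled Kdm2b-KO and 1.25 FPKM in the WT library. On the FPKM scale some low genes differed more, such as Foxk1, a forkhead factor, at 1.39 FPKM in the library labelled Kdm2b-KO and 0.663 FPKM in the WT library. With the trend on length and GC content removed from the ratio on FPKM + 1, Hcfc1 was at 0.27 and Foxk1 at 0.14. The counting interval lay above 0 for 14 of the 20 and below 0 for 1, against 43.0% and 20.3% of all detected genes. Fragment numbers were not matched here either. The most abundant were Max, the partner of MGA, at 63.9 FPKM in the library labelled Kdm2b-KO and 74.7 FPKM in the WT library, and Csnk2b, a casein kinase subunit found with PCGF5, at 28.6 FPKM in the library labelled Kdm2b-KO and 28.4 FPKM in the WT library. Of 6 genes that counter Polycomb marks, 4 were detected and 0 were 1.5-fold apart on FPKM + 1. Kdm6b, the LPS-inducible demethylase of the PRC2 mark, had 2.64 FPKM in the library labelled Kdm2b-KO and 1.48 FPKM in the WT library, a log2 ratio of 0.55 on FPKM + 1 and an FPKM 1.78 times as high. Kdm6b was at 0.14 with the trend on length and GC content removed. Its X-linked paralogue Kdm6a had 1.44 FPKM in the library labelled Kdm2b-KO and 1.73 FPKM in the WT library, and Usp16, an H2A deubiquitinase, had 3.00 FPKM in the library labelled Kdm2b-KO and 2.90 FPKM in the WT library.

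Markers of other peritoneal cells differed between the libraries. The 8 B cell markers summed to 2.87 FPKM in the library labelled Kdm2b-KO and 27.4 FPKM in the WT library, all 8 were lower in the library labelled Kdm2b-KO, and Ighd was listed at 0 there. The 8 stromal markers summed to 519 FPKM in the library labelled Kdm2b-KO and 378 FPKM in the WT library, with 7 of 8 higher in the library labelled Kdm2b-KO and Sparc at 182 FPKM in the library labelled Kdm2b-KO and 85.6 FPKM in the WT library. The T and NK cell markers summed to 2.76 FPKM in the library labelled Kdm2b-KO and 6.55 FPKM in the WT library, nearly all of it Lck, with the 3 Cd3 genes listed at 0 in both libraries, and the mesothelial markers to 106.9 FPKM in the library labelled Kdm2b-KO and 105.9 FPKM in the WT library. The neutrophil markers summed to 15.2 FPKM in the library labelled Kdm2b-KO and 14.4 FPKM in the WT library, nearly all of it S100a8, while Ly6g, Mpo and Retnlg were listed at 0 in the library labelled Kdm2b-KO and in the WT library. The dendritic cell markers summed to 15.7 FPKM in the library labelled Kdm2b-KO and 30.1 FPKM in the WT library, nearly all of it Ccl22, with Xcr1, Clec9a and Siglech at 0. Their part in the differences of Polycomb genes was not tested.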

How the data were processed

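The authors deposited 1 FPKM value per Ensembl gene and library, per the file headers, from poly-A selected, randomly primed paired-end RNA libraries, per the labels' protocols. HISAT2 2.0.4, StringTie 1.3.0, edgeR and the builds GRCm38.p4 and mm10 appear in the submitters' processing notes, with no role stated for any of them. Of 34745 listed gene IDs, 34344 took a symbol, position and transcript length from GENCODE M21 (GRCm38). FPKM divides by library size and transcript length, so abundant genes and RNA fragmentation can shift all other values.

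For genes with 1 annotated transcript and fewer than 20 fragments, the product of FPKM and length was a whole number of steps of 1 size, within 0.02 of a fragment, for 92.6% of 1523 genes in the library labelled Kdm2b-KO and 92.3% of 1461 in the WT library. That step gave the depth, and with the longest transcript as gene length it gave fragments per gene and exact Clopper-Pearson 95% intervals. Such intervals hold counting error alone, because reads copied by PCR are not separate molecules, and their width depends on the gene length chosen.

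The log2 ratio used a pseudocount of 1 FPKM, a floor of a mean of 1 FPKM and fixed fold rules of 2 and 1.5. The trend with length and GC content was removed in 20 bins each. Alternatives were pseudocounts of 0.1 and 5, median, upper quartile and total scaling, a floor of 5 FPKM or none, and, added after seeing the data, the summed exon length and leaving out X-linked members. The members and lists were chosen with earlier results of these data known. All 40 members are named, and of the 2 lists of other Polycomb pathway genes those at least 1.5-fold apart on FPKM + 1 and the 2 most abundant of each; further genes, markers included, were chosen after their values were seen. Calculations used Python 3.11.15, pandas 2.3.3 and scipy 1.17.1 and were tested on simulated data. Results for some genes of the lists are not reported here.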

Additional observations from a re-analysis of the deposited data

How the results depend on the processing

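The spread between animals is unknown here. No paired analysis was possible because each group has 1 library. The count of members at least 1.5-fold higher was 2 (Bcor and Asxl1) with a pseudocount of 0.1 and 2 (the same pair) with equal totals, and 0 otherwise. It was 0 for every other fold count in all settings run. After removal of the trend with length and GC content, the canonical PRC1 median was -0.16. The log2 ratio of Kdm2b, a gene under 1 FPKM, was -0.11. With the summed exon length, the counting interval lay below 0 for 5 members, Skp1a and Mtf2 being added, and above 0 for 15 past the floor (Eed added) and 8 under it (Kdm2b and Phc3 added), against 3, 14 and 6. The median of the members lay between 0.04 and 0.24 over the settings, while that of all genes lay between -0.01 and 0.18. Scaling the library labelled Kdm2b-KO by 0.915 set the median of all genes to about 0 and changed the sign of 3 members, Rnf2, Phf1 and Phf19. Removing the trend changed the sign of 10, of which 4 had reached a mean of 1 FPKM. For those under it, ratios shrunk by the pseudocount were set against medians of detected genes. In every pseudocount, scaling and trend setting, 25 of the 40 kept their sign. The causes were not tested. The median of PRC2 lay between -0.02 and 0.22. Depth limits the members under 1 FPKM most, since Cbx7, Pcgf2, Cbx2 and Phf19 rest on fewer than 20 fragments in each library.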
